A study of Mus musculus with 7 samples.

Results

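A group of 10 genes whose products hold back signalling from the T cell receptor (TCR) was followed by RNA sequencing of naive CD4 T cells, helper lymphocytes without prior contact with antigen. They were chosen by symbol, as Cd5, Cd6, Sit1, Lax1, Pag1, Csk, Ptpn6, Ptpn22, Ubash3a and Ubash3b, and all 10 were found among the 34745 genes of the deposited table. The cells came from the spleen of 4 mice heterozygous for a Pik3cd allele with gain of function (GOF), Pik3cd being the gene of the p110delta catalytic subunit of phosphoinositide 3-kinase, and of 3 wild-type (WT) littermates. All 7 mice were male C57BL/6 animals 8 weeks old and untreated. Cells were isolated ex vivo by negative selection, and the labels give as many mice as libraries. The labels state neither the sequence change of the allele nor whether it acts in T cells alone.

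When the TCR binds its ligand, the kinase LCK phosphorylates the receptor chains and ZAP70, and adaptor proteins carry the signal on. The genes described here act against those steps at several points. CD5 and CD6 are surface receptors, SIT, LAX and PAG are membrane adaptors, CSK is the kinase that places the inhibitory phosphate on LCK, and SHP-1, PTPN22, STS-1 and STS-2 are phosphatases or their relatives. In thymocytes and naive T cells the surface level of CD5 is known to follow the strength of the self-ligand signal a cell receives.

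The libraries held 14945520 to 16293539 counts in GOF and 14497957 to 15015783 in WT. Pik3cd mRNA was lower in GOF cells, at 538 to 765 CPM (counts per 1000000, scaled by TMM) in GOF and 938 to 1511 CPM in WT, with a log2 fold change of -0.80 (SE 0.20, edgeR quasi-likelihood, adjusted p = 0.0154), and gene counts do not show the allele. Of 12668 genes that passed the filter on low counts, 2130 were higher (16.8%) and 1838 lower (14.5%) in GOF cells at a Benjamini-Hochberg adjusted p under 0.05, and with library totals in place of TMM scaling the numbers were 2527 and 1428. The labelled cell type was checked on T cell genes, all of them at high levels in both genotypes. Cd3e was at 508 to 550 CPM in GOF and 399 to 405 CPM in WT, Cd4 at 1064 to 1163 CPM in GOF and 698 to 855 CPM in WT, and Trac, the constant region of the TCR alpha chain, at 1166 to 1360 CPM in GOF and 572 to 606 CPM in WT. Of the genes typical of naive T cells, Ccr7 was at 550.4 to 710.2 CPM in GOF and 702 to 751 CPM in WT and did not pass (edgeR adjusted p = 0.144). Lef1 was lower in GOF (log2 fold change -0.34, SE 0.11, edgeR adjusted p = 0.0480), and so was Il7r (log2 fold change -1.01, SE 0.17, edgeR adjusted p = 0.00211). Not every gene of this kind that was examined leaned lower. Markers of other cells were also present. Of 14 myeloid markers 13 were called higher in GOF, with a summed level of 477 and 516 CPM in GOF replicates 1 and 3, 155 and 178 CPM in GOF replicates 2 and 4, and 47.1 to 84.9 CPM in WT, where Mertk was at 0. Neutrophil markers (9 of 10 higher) summed to 63.1 to 210.2 CPM in GOF and 0.551 to 8.41 CPM in WT, where Camp was at 0. B cell markers (6 of 11 tested higher, Vpreb3 not tested) summed to 700.1 to 1144 CPM in GOF and 361 to 468 CPM in WT. Natural killer and CD8 markers (8 of 10 higher) summed to 128 to 177 CPM in GOF and 61.2 to 78.2 CPM in WT. The 2 not called were the CD8 genes Cd8a and Cd8b1, with log2 fold changes of -0.78 and -0.23 and overlapping groups. Myeloid and B cells are known to express Ptpn6, Csk and other genes of this group. The part of such cells in the results was not tested. The values without GOF replicates 1 and 3, given below, do not test it. GOF replicates 2 and 4 also exceeded every WT library in the myeloid, neutrophil and B cell sums. Of 10 markers of activated or memory T cells 9 were higher and 1 lower in GOF, with a summed level of 772 to 788 CPM in GOF and 244 to 281 CPM in WT. Of 8 regulatory T cell markers 5 were higher (Foxp3, Ikzf2, Ctla4, Tigit and Nrp1) and 3 lower (Il2ra, Tnfrsf18 and Tnfrsf4). Their summed levels of 340 to 372 CPM in GOF and 341 to 481 CPM in WT overlapped, and the sum joins genes that went opposite ways. Foxp3 was at 68.4 to 76.6 CPM in GOF and 29.0 to 32.9 CPM in WT. Tnfrsf18 was at 50.0 to 67.9 CPM in GOF and 146 to 204 CPM in WT. The part of such cells in the levels of the 10 members was not tested. In bulk RNA fewer or more cells of a type and less or more RNA per cell cannot be told apart.

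The promoters of members that moved in common, and of a member that did not, are shown so that the sequence beside each measured transcript can be compared. The RefSeq promoter table (build GRCm38.p6) held 8 of the 10 members, and for each the start nearest to the deposited gene end was taken. The 250 bases before that start are printed 5′ to 3′ on the gene's strand. Capitals mark matches, on either strand, to the ETS core GGAAG, the NFAT core TGGAAA, the RUNX core TGTGGT, the TCF/LEF core CTTTGA or the E2A type E-box CAGCTG. The windows are chr19:10738975-10739224 (Cd5, minus strand), chr4:43483710-43483959 (Sit1, minus), chr6:124738710-124738959 (Ptpn6, minus), chr1:133690109-133690358 (Lax1, minus) and chr3:103859545-103859794 (Ptpn22, plus).
Cd5: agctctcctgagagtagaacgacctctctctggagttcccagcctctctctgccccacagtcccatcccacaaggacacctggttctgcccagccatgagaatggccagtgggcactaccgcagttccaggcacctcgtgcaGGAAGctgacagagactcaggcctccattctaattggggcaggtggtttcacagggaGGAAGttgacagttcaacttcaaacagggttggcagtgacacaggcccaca
Sit1: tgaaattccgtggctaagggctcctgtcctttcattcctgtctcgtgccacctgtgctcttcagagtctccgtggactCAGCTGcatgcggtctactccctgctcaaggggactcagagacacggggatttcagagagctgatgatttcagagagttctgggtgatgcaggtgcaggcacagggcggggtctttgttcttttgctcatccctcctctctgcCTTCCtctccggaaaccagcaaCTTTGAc
Ptpn6: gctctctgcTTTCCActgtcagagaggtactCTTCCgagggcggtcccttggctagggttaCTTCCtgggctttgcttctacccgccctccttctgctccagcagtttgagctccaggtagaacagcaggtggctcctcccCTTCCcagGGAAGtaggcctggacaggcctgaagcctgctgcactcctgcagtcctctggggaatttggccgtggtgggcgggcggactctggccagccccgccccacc
Lax1: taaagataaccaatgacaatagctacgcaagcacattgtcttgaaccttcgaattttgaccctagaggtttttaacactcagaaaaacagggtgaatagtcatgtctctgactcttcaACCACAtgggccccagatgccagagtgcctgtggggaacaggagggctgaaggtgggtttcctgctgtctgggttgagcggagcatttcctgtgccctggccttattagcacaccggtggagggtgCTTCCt
Ptpn22: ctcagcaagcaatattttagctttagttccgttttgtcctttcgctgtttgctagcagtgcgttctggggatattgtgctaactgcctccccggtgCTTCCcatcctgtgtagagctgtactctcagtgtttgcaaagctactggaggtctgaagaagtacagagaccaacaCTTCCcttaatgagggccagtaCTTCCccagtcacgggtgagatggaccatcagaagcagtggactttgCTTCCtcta
The ETS core was found in the windows of 8 of 8 members, including the 3 not printed, Csk, Ubash3a and Ubash3b, and in 64.1% of all 32851 promoter windows in the table. The NFAT core was in the windows of Ptpn6 and Ubash3b, 2 of 8, against 18.6% of all windows. The Ubash3b window lies 3635 bases from the 5′ end of the deposited gene, and the other 7 windows within 193 bases of theirs. The RUNX core was in Lax1 alone among the 8, against 14% of all windows, and the TCF/LEF core and the E-box in Sit1 alone, against 13.8% and 13%. The AP-1 sequence TGANTCA, the EGR sequence GCGNGGGCG and the FOXO sequence GTAAACA were in 0 of the 8 windows, against 6.75%, 4.7% and 3.17% of all windows. The ETS and NFAT cores share the letters GGAA, and a given GGAA can match only 1 of them on its strand. These are matches of letters and no sites of binding.

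Of the 10 members 7 were higher in GOF cells and 0 lower by edgeR, beside 16.8% higher and 14.5% lower among all tested genes. The 7 were Cd5, Cd6, Sit1, Ubash3b, Ptpn6, Lax1 and Csk, and Pag1, Ubash3a and Ptpn22 did not pass the threshold. All 10 passed the filter. The choice of members was made with earlier results of these data known, so the counts do not describe an independently chosen group. At an unadjusted p under 0.05 the count lower was also 0, as it was with DESeq2 and with limma. The median log2 fold change of the 10 was 0.94, and that of all tested genes 0.01. For the same 7 members every GOF library lay above every WT library, which was so for 21.5% of all tested genes, and for 0 members every GOF library lay below every WT library, beside 18.2% of all tested genes.

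**Figure D1:**
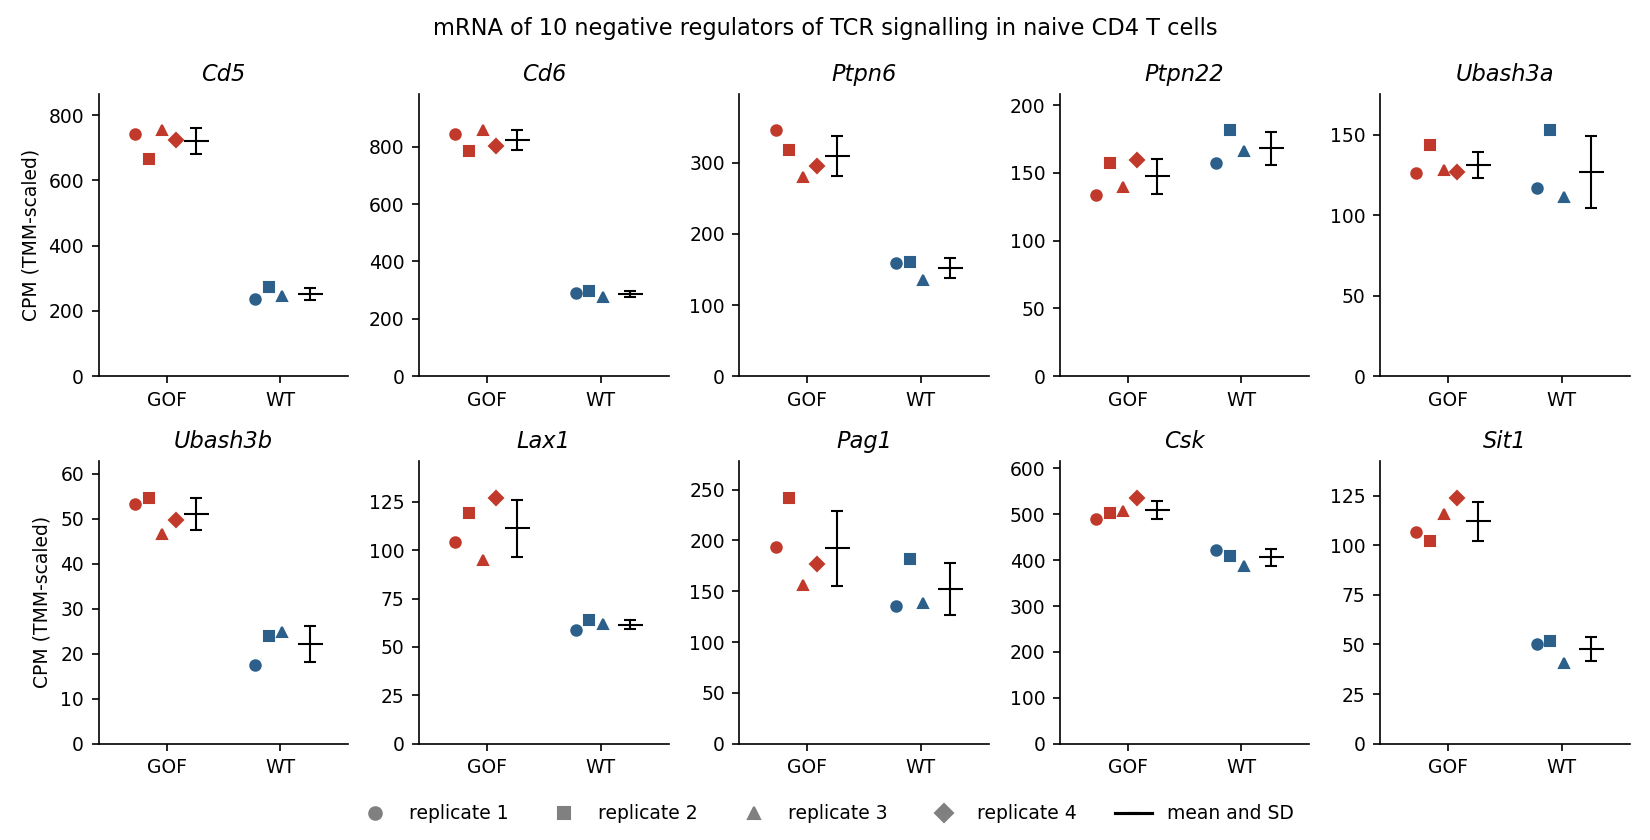
CPM (TMM-scaled) of each of the 10 members in every library, with GOF on the left and WT on the right of each panel, 1 symbol per replicate, and the mean and SD beside them. The GOF and WT points are apart in 7 panels and overlap for Ptpn22, Ubash3a and Pag1.

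Cd5 and Cd6, the 2 surface receptors of the group, showed the largest fold changes among the 10 members. Both proteins carry scavenger receptor domains outside the cell and tyrosines inside it to which signalling proteins bind. Cd5 (ENSMUSG00000024669, protein-coding, mm10 chromosome 19, 10718143 to 10738974, minus strand) was at 742, 666, 754 and 724 CPM in GOF replicates 1 to 4, against 236, 272 and 246 CPM in WT replicates 1 to 3. The groups were far apart, since the lowest GOF library was at 666 CPM and the highest WT library at 272 CPM. The mean was 721 ± 39.1 CPM in GOF (SD, n = 4) and 251 ± 18.8 CPM in WT (SD, n = 3), a log2 fold change of 1.52 (SE 0.09, edgeR adjusted p = 6.79e-06). Among all tested genes 8.39% had a larger log2 fold change.

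Cd6 (ENSMUSG00000024670, protein-coding, mm10 chromosome 19, 10789341 to 10830058, minus strand) was at 846, 785, 857 and 804 CPM in the GOF libraries, against 290.4, 297 and 275 CPM in the WT libraries. Its groups were as far apart as those of Cd5, with means of 823 ± 34.1 CPM in GOF (SD, n = 4) and 287 ± 11.2 CPM in WT (SD, n = 3). The log2 fold change was 1.52 (SE 0.08, edgeR adjusted p = 4.09e-06). Within the GOF group both receptors were highest in replicates 1 and 3, the libraries with most myeloid markers. Without these 2 libraries the log2 fold changes of Cd5 and Cd6 were 1.46 and 1.46 (edgeR adjusted p = 0.000393 and 0.000309).

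The 2 receptors kept a near constant proportion to each other. The ratio of Cd5 to Cd6 in FPKM (fragments per kilobase of transcript, scaled to the library total) was 2.58, 2.50, 2.59 and 2.65 in the GOF libraries, against 2.39, 2.70 and 2.63 in the WT libraries. The GOF ratios lay inside the WT range, and the log2 ratio differed by 0.0039 (exact permutation test over libraries, 2-sided, p = 0.971, adjusted over the 5 pairs compared p = 1). Its SD over libraries was 0.035 in GOF and 0.092 in WT on the log2 scale. By root mean square difference of the centred log2(CPM + 0.5) profiles over the 7 libraries, Cd6 was the nearest to Cd5 of 6497 other genes with a mean FPKM of at least 5 (0.0541).

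The genes next in likeness to Cd5 outside the group were Flt3l, the gene of the cytokine FLT3 ligand, Itgb2, the integrin beta chain CD18, and Fmnl3, a formin that builds actin filaments (root mean square differences 0.0752, 0.0874 and 0.113). Flt3l was at 89.3 to 105 CPM in GOF and 33.8 to 39.1 CPM in WT, Itgb2 at 636 to 666 CPM in GOF and 229 to 266 CPM in WT, and Fmnl3 at 108 to 115 CPM in GOF and 31.1 to 37.7 CPM in WT. The measure takes in the difference between the groups as well as the spread within them.

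Cd5 and Cd6 are neighbours on chromosome 19, and the genes around them did not follow them as a block. Within 250 kb of either gene 16 other genes were tested, of which 2 were higher and 2 lower in GOF, beside 16.8% and 14.5% of all tested genes. The gene between the receptors, A430093F15Rik (ENSMUSG00000067577, 10740947 to 10786043, a processed transcript on the plus strand in GENCODE M21), begins 1973 bases from the 5′ end of Cd5 and ends 3298 bases short of the Cd6 locus. It was at 23.04, 23.6, 24.8 and 25.9 CPM in the GOF libraries, against 2.30, 1.72 and 1.81 CPM in the WT libraries. Its groups were far apart, with a log2 fold change of 3.64 (SE 0.17, edgeR adjusted p = 2.52e-06), exceeded by 2% of tested genes.

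The second neighbour that rose was AW112010, a long non-coding RNA gene in GENCODE M21, at 165 ± 25.9 CPM in GOF and 48.9 ± 9.28 CPM in WT (SD, n = 4 and 3, log2 fold change 1.76, edgeR adjusted p = 8.66e-05). Tmem109, which encodes a membrane protein, and Ddb1, which encodes a DNA damage binding protein, fell, with log2 fold changes of -0.59 and -0.38 (edgeR adjusted p = 0.00316 and 0.00497). Vps37c, the tested gene just beyond Cd5, and Slc15a3, the one just beyond Cd6, were not called, with log2 fold changes of 0.36 and 0.41 (edgeR adjusted p = 0.0791 and 0.526). Both were picked with their values in view.

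**Figure D2:**
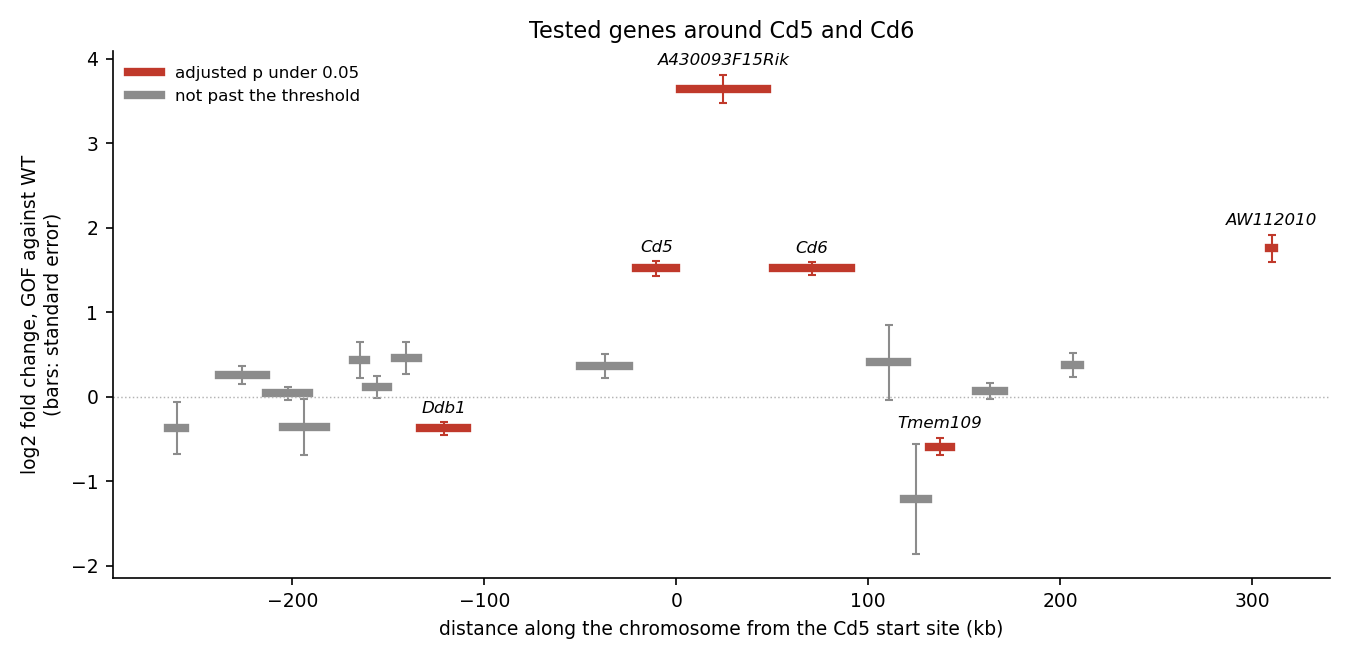
Log2 fold change, GOF against WT, of the tested genes within 250 kb of Cd5 or Cd6 (vertical axis, bars are standard errors) by distance in kb from the Cd5 start site (horizontal bars span each gene). Cd5 and Cd6 share a log2 fold change of 1.52, A430093F15Rik between them stands at 3.64, and the genes not called lie between -1.21 and 0.46.

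Of the 3 membrane adaptors, Sit1 and Lax1 were higher in GOF cells and Pag1 did not pass the threshold. SIT carries inhibitory tyrosine motifs that bind phosphatases. Sit1 (ENSMUSG00000028460, protein-coding, mm10 chromosome 4, 43482081 to 43483734, minus strand) was at 107, 102, 116 and 124 CPM in the GOF libraries, against 50.4, 51.8 and 40.6 CPM in the WT libraries. The groups did not overlap, with means of 112 ± 9.74 CPM in GOF (SD, n = 4) and 47.6 ± 6.11 CPM in WT (SD, n = 3). The log2 fold change was 1.24 (SE 0.12, edgeR adjusted p = 0.000105).

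LAX is an adaptor of T and B cells that resembles LAT in its signalling motifs. Lax1 (ENSMUSG00000051998, protein-coding, mm10 chromosome 1, 133679091 to 133690108, minus strand) was at 104, 119, 94.8 and 127 CPM in the GOF libraries, against 59.0, 63.8 and 61.9 CPM in the WT libraries. Here GOF replicates 1 and 3 were the 2 lowest of the GOF group, the reverse of their order for Cd5 and Cd6. The means were 111 ± 14.5 CPM in GOF (SD, n = 4) and 61.6 ± 2.42 CPM in WT (SD, n = 3), a log2 fold change of 0.85 (SE 0.12, edgeR adjusted p = 0.000763), and 0.99 without GOF replicates 1 and 3 (edgeR adjusted p = 0.00183).

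PAG sits in lipid rafts and, when phosphorylated, holds CSK at the membrane near LCK. Pag1 (ENSMUSG00000027508, protein-coding, mm10 chromosome 3, 9687479 to 9833679, minus strand) was at 194, 242, 156 and 177 CPM in the GOF libraries, against 136, 182 and 139 CPM in the WT libraries. The groups overlapped through WT replicate 2, which exceeded 2 of the 4 GOF libraries. With means of 192 ± 36.6 CPM in GOF (SD, n = 4) and 152 ± 25.8 CPM in WT (SD, n = 3), the log2 fold change of 0.34 (SE 0.16) did not pass (edgeR adjusted p = 0.146). Leaving out single libraries gave log2 fold changes of 0.21 (without GOF replicate 2) to 0.48. Its coefficient of variation within groups was 19.1% in GOF and 17% in WT, and that of Cd6 4.15% in GOF and 3.9% in WT.

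Csk, the kinase that PAG recruits, was higher by a small margin. Csk (ENSMUSG00000032312, protein-coding, mm10 chromosome 9, 57626647 to 57645653, minus strand) was at 490, 502, 507 and 536 CPM in the GOF libraries, against 423, 408 and 387 CPM in the WT libraries. The groups did not overlap, with 490 CPM in the lowest GOF library and 423 CPM in the highest WT library. The means were 509 ± 19.5 CPM in GOF (SD, n = 4) and 406 ± 18.1 CPM in WT (SD, n = 3), a log2 fold change of 0.32 (SE 0.07, edgeR adjusted p = 0.0101). Without GOF replicates 1 and 3 it was 0.34 and the call was lost (edgeR adjusted p = 0.0614).

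Csk did not shift relative to its partners by more than the libraries varied. The FPKM ratio of Pag1 to Csk was 0.0784, 0.0954, 0.0610 and 0.0653 in the GOF libraries, against 0.0634, 0.0882 and 0.0710 in the WT libraries, with overlapping groups (log2 difference 0.0077, exact permutation test, 2-sided, p = 1, adjusted over 5 pairs p = 1). Ptprc encodes CD45, the phosphatase that removes the mark CSK places on LCK. The ratio of Csk to Ptprc was 3.63, 2.93, 4.31 and 4.13 in the GOF libraries, against 4.20, 2.88 and 3.30 in the WT libraries, also overlapping (log2 difference 0.12, exact permutation test, 2-sided, p = 0.514, adjusted over 5 pairs p = 0.857). Lck itself, picked with its value in view, was at 1213 ± 51.2 CPM in GOF and 939.9 ± 46.9 CPM in WT (SD, n = 4 and 3), higher by 0.37 on the log2 scale (SE 0.08, edgeR adjusted p = 0.00718).

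Of the tyrosine phosphatase genes, Ptpn6 was higher in GOF cells and Ptpn22 did not pass the threshold. SHP-1, the product of Ptpn6, is recruited to inhibitory tyrosine motifs and is found throughout the blood cell lineages. Ptpn6 (ENSMUSG00000004266, protein-coding, mm10 chromosome 6, 124720707 to 124738714, minus strand) was at 346, 318, 280.2 and 295 CPM in the GOF libraries, against 160, 161 and 136 CPM in the WT libraries. The groups were well apart, with means of 309.8 ± 28.5 CPM in GOF (SD, n = 4) and 152 ± 14.1 CPM in WT (SD, n = 3). The log2 fold change was 1.027 (SE 0.10, edgeR adjusted p = 0.000135), and 1.00 without GOF replicates 1 and 3 (edgeR adjusted p = 0.00202).

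PTPN22, named PEP in the mouse, binds CSK and removes activating phosphates from LCK and ZAP70. Ptpn22 (ENSMUSG00000027843, protein-coding, mm10 chromosome 3, 103859795 to 103912247, plus strand) was at 134, 158, 140 and 160 CPM in the GOF libraries, against 157, 181 and 166 CPM in the WT libraries. The groups overlapped, since GOF replicates 2 and 4 stood above WT replicate 1. It had the lowest log2 fold change of the 10 members, -0.19 (SE 0.09), and did not pass (edgeR adjusted p = 0.164). The means were 148 ± 12.9 CPM in GOF (SD, n = 4) and 168 ± 12.3 CPM in WT (SD, n = 3).

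The proportion of their mRNAs was higher in every GOF library. The FPKM ratio of Ptpn6 to Ptpn22 was 4.44, 3.47, 3.45 and 3.18 in the GOF libraries, against 1.74, 1.52 and 1.40 in the WT libraries. All GOF ratios exceeded all WT ratios, by 2.32-fold on the mean log2 ratio (exact permutation test, 2-sided, p = 0.0571, the smallest that 4 against 3 libraries allow, adjusted over 5 pairs p = 0.143).

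Of the 2 STS genes, Ubash3b was higher in GOF cells and Ubash3a did not pass the threshold. STS-1, the product of Ubash3b, is an active phosphatase towards ZAP70, and STS-2, the product of Ubash3a and the form typical of T cells, has weak activity. Ubash3b (ENSMUSG00000032020, protein-coding, mm10 chromosome 9, 41011098 to 41161697, minus strand) was at 53.2, 54.6, 46.6 and 49.8 CPM in the GOF libraries, against 17.5, 23.9 and 24.9 CPM in the WT libraries. The groups were clearly apart, with means of 51.1 ± 3.59 CPM in GOF (SD, n = 4) and 22.1 ± 3.98 CPM in WT (SD, n = 3), a log2 fold change of 1.21 (SE 0.14, edgeR adjusted p = 0.000313). Without GOF replicates 1 and 3 it was 1.23 (edgeR adjusted p = 0.00509).

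Ubash3a (ENSMUSG00000042345, protein-coding, mm10 chromosome 17, 31207873 to 31242202, plus strand) was at 127, 144, 128 and 127 CPM in the GOF libraries, against 117, 153 and 111 CPM in the WT libraries. The WT libraries enclosed the GOF libraries, and the log2 fold change was 0.05 (SE 0.12, edgeR adjusted p = 0.794), with a sign that turned without WT replicate 1 or without WT replicate 3 (-0.01 and -0.04). The means were 131 ± 8.25 CPM in GOF (SD, n = 4) and 127 ± 22.5 CPM in WT (SD, n = 3). The FPKM ratio of Ubash3a to Ubash3b was 5.15, 5.69, 5.95 and 5.51 in the GOF libraries, against 14.5, 13.8 and 9.67 in the WT libraries. Every GOF ratio was below every WT ratio (log2 difference -1.16, exact permutation test, 2-sided, p = 0.0571, adjusted over 5 pairs p = 0.143), and Ubash3a remained the more abundant of the pair per length in all 7 libraries.

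**Figure D3:**
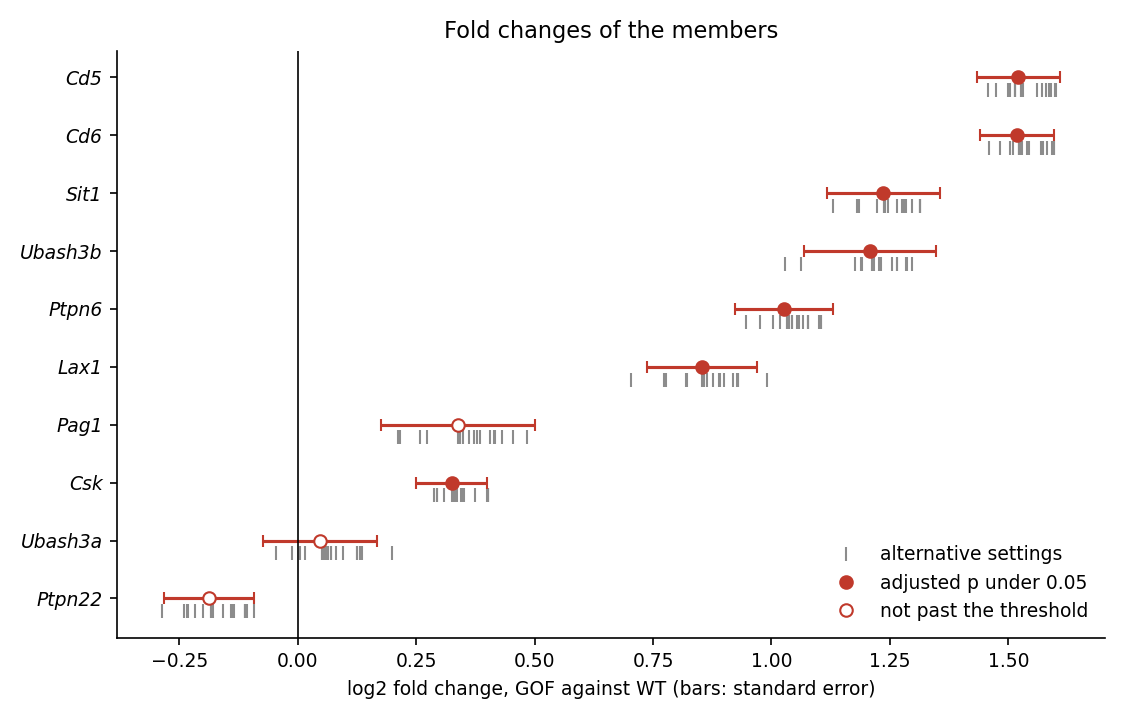
Log2 fold change, GOF against WT, of each member with its standard error, filled where the adjusted p is under 0.05, and grey ticks for the values under the alternative settings. Cd5 and Cd6 lead at 1.52, Sit1, Ubash3b and Ptpn6 lie between 1.027 and 1.236, Lax1 is at 0.85, and Ptpn22 lies below 0 at -0.19.

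Set per transcript length, the order of the members differed between the genotypes. In GOF cells Cd5 led at 356 ± 19.3 FPKM (SD, n = 4), ahead of Csk at 189 ± 6.40 FPKM and Cd6 at 138 ± 5.93 FPKM, and each of these lay apart from the next in all libraries. In WT cells Csk led at 143 ± 4.85 FPKM (SD, n = 3), ahead of Cd5 at 118 ± 8.94 FPKM and Cd6 at 45.7 ± 1.42 FPKM, again with no overlap between neighbours. Below them in GOF cells stood Ptpn6 (63.3 FPKM), Sit1 (57.8 FPKM), Lax1 (41.3 FPKM) and Ubash3a (34.4 FPKM). In that stretch Ptpn6 and Sit1 overlapped, and so did Lax1 and Ubash3a.

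In WT cells Ubash3a (31.6 FPKM) stood above Ptpn6 (29.4 FPKM), Sit1 (23.3 FPKM) and Lax1 (21.7 FPKM). Of these neighbours Ubash3a and Ptpn6 overlapped, as did Sit1 and Lax1. Ptpn22, Pag1 and Ubash3b took the last places in both genotypes, at 17.6, 14.2 and 6.19 FPKM in GOF and 19.0, 10.6 and 2.54 FPKM in WT, and of these Ptpn22 and Pag1 overlapped in GOF. FPKM levels are scaled by library totals and not by TMM.

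**Figure D4:**
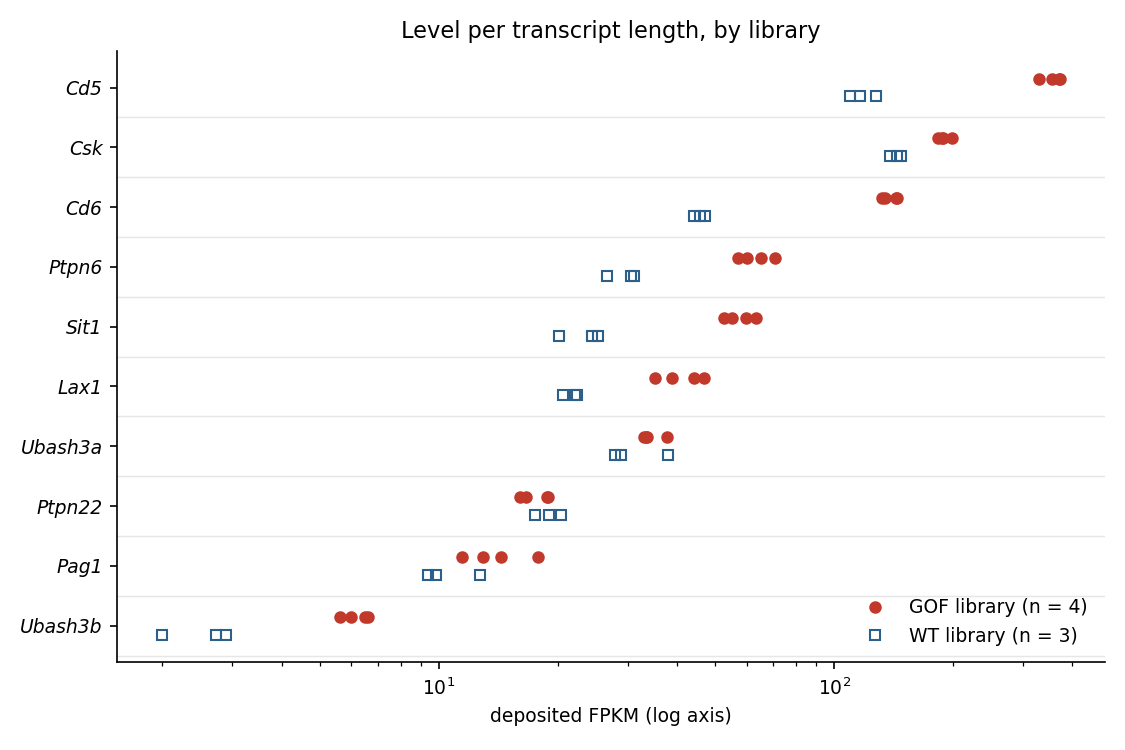
Deposited FPKM of each member in every library on a log axis, with filled circles for the 4 GOF and open squares for the 3 WT libraries, ordered by the GOF mean. Cd5 stands above Csk in GOF (356 and 189 FPKM) and below it in WT (118 and 143 FPKM).

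Genes of the signalling machinery that the members act on were also examined. Of 20 genes of the TCR complex and its proximal activators 8 were higher and 2 lower in GOF. Among all tested genes 16.8% were higher and 14.5% lower. The median log2 fold change of the 20 was 0.25. Rasgrp1, an activator of Ras, fell to 537 ± 44.4 CPM in GOF (SD, n = 4), against 1242 ± 64.4 CPM in WT (SD, n = 3), a log2 fold change of -1.21 (SE 0.09, edgeR adjusted p = 2.42e-05). Tespa1, a signalling protein first described in thymocytes, rose to 69.5 ± 6.30 CPM in GOF, against 14.8 ± 5.19 CPM in WT (log2 fold change 2.23, SE 0.21, edgeR adjusted p = 9.94e-05). Cd3g, a chain of the TCR complex, and the coreceptor Cd4 rose with log2 fold changes of 0.63 and 0.55 (edgeR adjusted p = 0.00123 and 0.00264). The number lower was 1 in place of 2 without GOF replicates 1 and 3, without GOF replicate 3 and without GOF replicate 4.

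Among 18 other inhibitors of TCR signalling 6 were higher and 2 lower, beside 16.8% higher and 14.5% lower among all tested genes. Their median log2 fold change was 0.23. Sla, an adaptor that promotes loss of TCR chains from the surface, rose to 168 ± 11.2 CPM in GOF (SD, n = 4), against 67.3 ± 9.29 CPM in WT (SD, n = 3), a log2 fold change of 1.32 (SE 0.11, edgeR adjusted p = 5.57e-05). Rasa1, a brake on Ras, fell with a log2 fold change of -0.98 (SE 0.15, edgeR adjusted p = 0.00132). Tnfaip3, the NF-kappaB inhibitor A20, rose with a log2 fold change of 2.48 (SE 0.47, edgeR adjusted p = 0.00407), at 286 to 814 CPM in GOF and 44.4 to 148 CPM in WT. Lyn, a kinase of B and myeloid cells, rose with a log2 fold change of 2.73 (SE 0.47, edgeR adjusted p = 0.00263). Its GOF values of 26.6 and 27.01 CPM in replicates 1 and 3 and 11.9 and 10.4 CPM in replicates 2 and 4 stood against 1.51 to 4.20 CPM in WT. Replicates 1 and 3 were also the 2 GOF libraries with the higher myeloid sums, and the part of myeloid cells in the level of Lyn was not tested.

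Of 8 ligands and binding partners of the members 3 were higher and 0 lower by edgeR, beside 16.8% and 14.5% of all tested genes. The count lower was 0 also at an unadjusted p under 0.05 and with DESeq2 and limma. The median log2 fold change of the 8 was 0.12. Pstpip1, an adaptor that binds phosphatases of the PTPN22 family, rose with a log2 fold change of 0.52 (SE 0.08, edgeR adjusted p = 0.00191). Slc9a3r1, which links PAG to the cytoskeleton, rose by 0.29 on the log2 scale (SE 0.09, edgeR adjusted p = 0.0328). Cdcp1, a ligand of CD6 described in human, was at 1.53 to 1.95 CPM in GOF and 0 to 0.790 CPM in WT, with 0 counts in WT replicate 3 (edgeR adjusted p = 0.0465). Alcam, the ligand of CD6 on antigen-presenting cells, was at 1.22 to 3.55 CPM in GOF and 2.30 to 4.48 CPM in WT and did not pass (edgeR adjusted p = 0.610), and it is named here with that value in view. The count higher was 1 of the 8 when WT replicate 2, GOF replicate 2, GOF replicate 3 or GOF replicate 4 was left out singly, and when GOF replicates 1 and 3 were left out together.

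**Figure D5:**
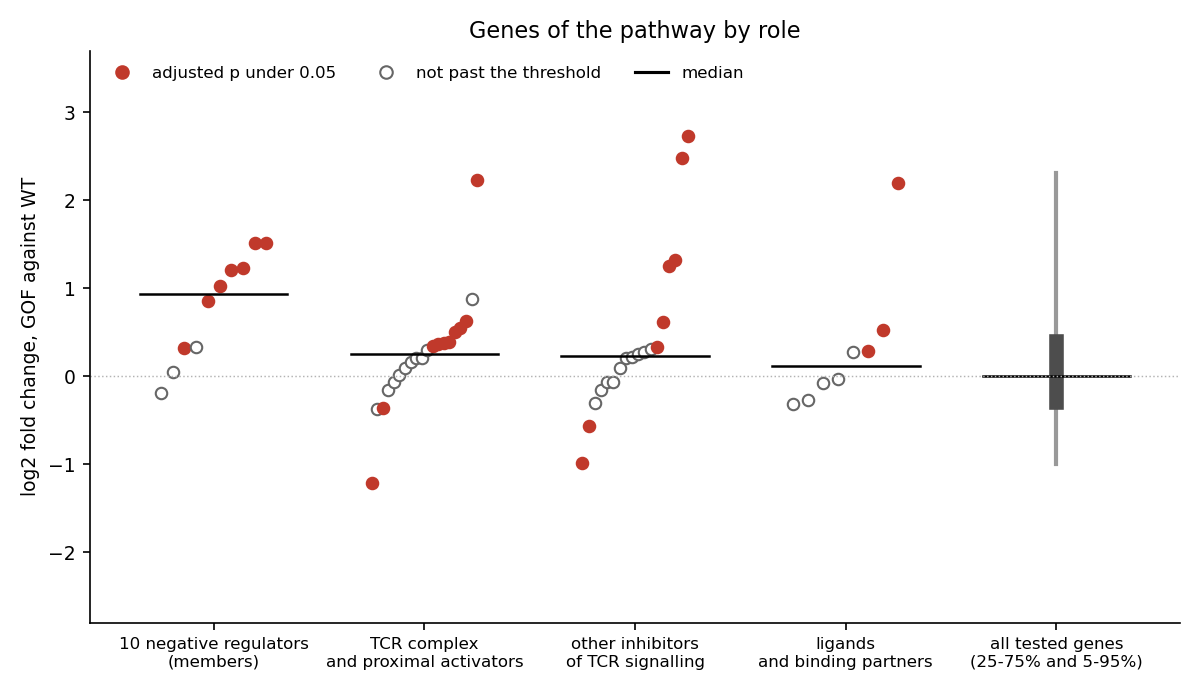
Log2 fold changes, GOF against WT, of the 10 members and of 3 further lists of the pathway, 1 point per gene, filled where the adjusted p is under 0.05, with list medians as lines and the spread of all tested genes at the right. The members' median of 0.94 lies above those of the other lists, which lie between 0.12 and 0.25. The choice of members and lists was made with earlier results of these data known.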

How the data were processed

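RNA of 4 GOF and 3 WT mice was analysed from 1 table of gene counts and FPKM values. The counts were deposited unnormalised. Each FPKM deposited by the authors is its count over the total of the library and over 1 length per gene, within 0.1% for 100% of values. The submitters' processing notes name HISAT2 2.0.4, Cufflinks 2.1.1, Cuffdiff and the build mm10, with no roles. How reads were counted, and whether by strand, is not given in the sources used here, so overlapping genes are less certain. In GENCODE M21, Ptpn6, Ptpn22, Pag1 and Ubash3b overlap other genes. Those found in the table held 24 counts over all libraries for Ptpn6, 248 and 174 for Ptpn22 and 0 for Pag1.

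Counts were tested with the quasi-likelihood method of edgeR 4.0.16 in R 4.3.3, with filterByExpr, TMM scaling, all 7 libraries in a 2-group model and Benjamini-Hochberg adjustment over 12668 genes at 0.05. The SE comes from the fold change and its F statistic. Adjusted p-values in the text are from this fit unless another tool is named. Alternatives used DESeq2 1.42.0, limma 3.58.1, other scalings, filters and sets of libraries. The edgeR fit was tested on simulated data. Ratios of FPKM were tested by exact 2-sided permutation over libraries. Named list genes are up to 4 per list with the smallest p among those past the threshold. Members and lists were chosen with earlier results of these data known. Where libraries are not separate mice, p-values measure only the spread between samples. Some marker genes, and list totals that hold them, are not reported here.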

Additional observations from a re-analysis of the deposited data

Results flagged for a closer look

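Of 15 sets of 4 GOF values examined (10 members and 5 ratios), 1 held a library far from the others, and chance gives about 1 in 20. Ubash3a was at 143.5 CPM in GOF replicate 2 and at 126.5, 128.1 and 126.6 CPM in GOF replicates 1, 3 and 4. In WT it was also highest in a single library, replicate 2, at 152.7 CPM.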

How the results depend on the processing

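Over 18 alternatives 6 to 8 members were called higher and 0 lower. Over the alternatives 175 member values kept direction and side of the threshold. The 4 exceptions were Csk without GOF replicates 1 and 3 (0.34, edgeR adjusted p = 0.0614), Pag1 with the replicate block (0.36, edgeR adjusted p = 0.0408), and Ubash3a, whose log2 fold change ran from -0.0449 (without WT replicate 3) to 0.20 when single libraries were left out and was -0.0117 without WT replicate 1. Ubash3b does not reach a mean FPKM of 5 and gave no value there. Over all genes 1093 were higher and 1069 lower with genes under a mean FPKM of 5 removed, which tests fewer genes, and 1074 and 1050 without GOF replicates 1 and 3, which leaves 2 GOF libraries. The proximal activators had 1 gene lower in place of 2 with library totals, in limma on log2(FPKM + 1) and log2(FPKM + 0.1), and without GOF replicates 1 and 3 or 2 and 4, and 1 to 3 when single libraries were left out. The other inhibitors had 1 lower without GOF replicates 1 and 3. Of the binding partners 1 was higher with the replicate block and without GOF replicates 1 and 3 or 2 and 4, and 1 to 2 when single libraries were left out. Log2 ratio differences near 0 changed sign. Cd5/Cd6 ran from -0.0478 to 0.0396 over single libraries left out, and was -2.11e-05 without GOF replicates 1 and 3 and -0.00908 with the replicate block. Pag1/Csk ran from -0.115 to 0.139, and was -0.021 on log2(FPKM + 1) and -0.0879 without GOF replicates 2 and 4. Csk/Ptprc ran from -0.00437 to 0.267. The cause of these changes was not tested.

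The labels do not say whether GOF and WT libraries with the same replicate number belong together. Deviations of same-numbered libraries from their group means correlated at 0.0256, 0.147 and -0.0406 over genes. For libraries with different numbers the correlations ran from -0.181 to 0.129. With so few libraries these values cannot decide whether mice were paired. With the replicate block over replicates 1 to 3, 1646 genes were higher and 1549 lower.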
